A study of Homo sapiens with 9 samples.

Results

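The transcripts of 10 Notch pathway genes were followed by RNA-seq in the breast cancer line MDA-MB-231 and in its lung and brain metastatic sub-populations. They are the receptors NOTCH1, NOTCH2 and NOTCH3, the ligands JAG1, JAG2, DLL1 and DLL4, and the target genes HES1, HEY1 and HEYL. The genes were chosen by symbol, with earlier results of these data known. Of them, 10 of 10 were found among the 58884 genes of the deposited count table. The parental line (Par) is a triple-negative, claudin-low breast cancer cell line. LM2 and BrM2 were selected from it in mice for growth in the lung and in the brain, so each stands for 1 selected sub-population and not for a class of metastases. All 3 lines were grown for 3 days in the same serum-containing medium, with no treatment and no other cell type. Each line had 3 biological replicates (n = 3 for every mean, SD and fold change), described in the study's methods as taken at different passages. The p-values rest on the spread between passages within lines, estimated over all 3 lines together, and not on further sub-populations. Without a term for the replicate number, that spread also holds shifts that libraries of the same number share.

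Notch receptors are membrane proteins that are activated by Jagged and Delta-like ligands on a neighbouring cell. Ligand binding lets ADAM proteases and then gamma-secretase cut the receptor, and the freed intracellular domain joins the DNA-binding protein RBPJ and a Mastermind coactivator at target promoters. The HES and HEY genes are well-known targets and encode basic helix-loop-helix repressors. Transcript levels measure neither receptor cleavage nor the activity of the pathway.

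RBPJ binds DNA around the letters TGGGAA. The 250 bases before the start of HES1 and of HEYL are shown, and both hold the letters. The promoter of the target gene HEY1 was left out by choice and was not searched. The sequences are from RefSeq (GRCh38.p14), read 5′ to 3′ on the strand of the gene, at chr3:194135898-194136147 on the plus strand for HES1 and chr1:39639644-39639893 on the minus strand for HEYL. Capitals mark TGGGAA or its reverse complement TTCCCA.
HES1: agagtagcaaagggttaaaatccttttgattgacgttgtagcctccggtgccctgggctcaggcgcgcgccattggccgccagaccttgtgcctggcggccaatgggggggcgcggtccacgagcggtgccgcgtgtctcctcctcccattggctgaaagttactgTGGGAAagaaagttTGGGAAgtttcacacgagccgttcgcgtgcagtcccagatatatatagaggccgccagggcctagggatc
HEYL: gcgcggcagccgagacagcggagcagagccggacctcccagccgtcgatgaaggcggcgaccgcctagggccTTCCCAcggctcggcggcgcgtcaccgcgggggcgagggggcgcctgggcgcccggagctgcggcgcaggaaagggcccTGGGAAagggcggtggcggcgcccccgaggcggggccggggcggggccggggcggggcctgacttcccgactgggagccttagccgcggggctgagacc
HES1 held 2 matches, with first bases at -84 and -70 from the start, both on the strand of the gene. HEYL held 2 as well, at -178 on the opposite strand and at -99 on its own. Promoters were searched for 8 of the 10 genes, without HEY1 and without DLL1, for which no promoter sequence was found. The 6 others searched (NOTCH1, NOTCH2, NOTCH3, JAG1, JAG2 and DLL4) held 0 matches in this window. The letters occurred on either strand in 20.8% of 35116 promoters of the same length. The longer form TGTGGGAA, which contains the shorter one, had 1 match in HES1 and occurred in 1.4% of promoters on either strand. The motif CACNAG, bound by HES repressors, had 3 matches in HES1 and 1 in NOTCH3, and 32.0% of promoters held at least 1 on either strand. A match describes letters and not a bound site.

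Counts on genes were 19878879 to 23948742 per library for Par, 23581487 to 24511786 for LM2 and 14371858 to 22055215 for BrM2. Levels are given as CPM, counts scaled to the size of each library after TMM normalization, which corrects for library composition. In RNA from whole cultures, fewer cells of a kind and less RNA per cell cannot be told apart. KRT8 and KRT18 had means of 409 to 850 CPM, KRT19 of 45.4 to 205 CPM, VIM of 722 to 1530 CPM, FN1 of 289 to 1130 CPM, ZEB1 of 60.3 to 92 CPM, EPCAM of 4.81 to 7.14 CPM and CDH1 of 0.344 to 1.2 CPM. The endothelial genes CDH5, VWF and TEK had means of at most 0.347 CPM, and PECAM1 and KDR of 2.27 to 7.96 CPM. Replicate 1 had the fewest genes with a count in each line (21490 to 23157, against 24558 to 25552 in the other replicates), and its libraries shifted in the same genes across lines. Results are therefore also given with the replicate number as a block in the model where this changes a call.

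**Figure D1:**
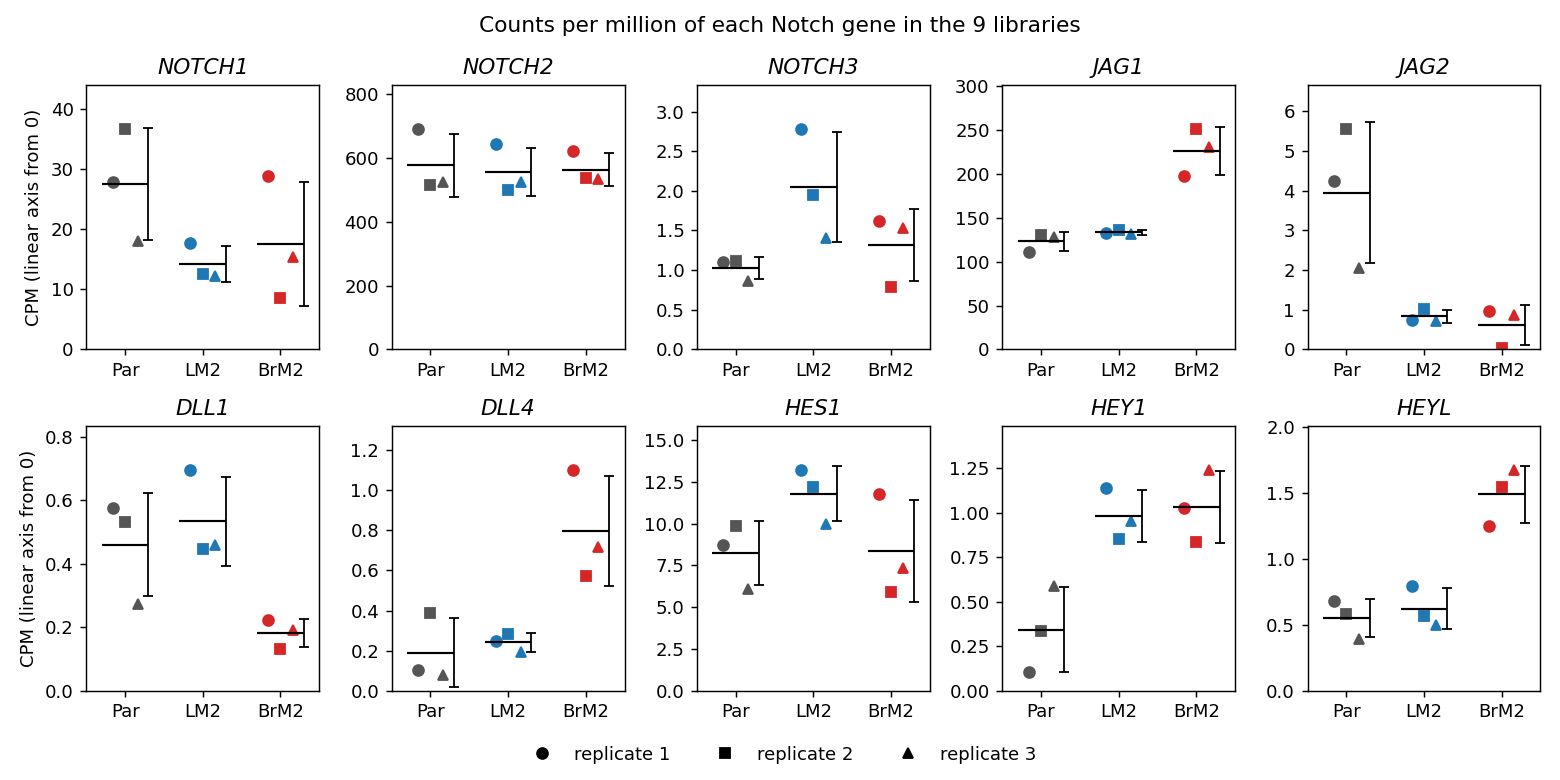
CPM (linear axis from 0) of each of the 10 Notch genes in Par, LM2 and BrM2. Points are libraries, with 1 shape per replicate number, and the line and bar give the mean and SD (n = 3). JAG1 was between 197 and 251 CPM in BrM2 and between 111 and 136 CPM in the libraries of Par and LM2.

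Among the receptors, NOTCH2 had the highest level in all 9 libraries, and it did not differ detectably between the lines. NOTCH2 (chr1:119911553-120069662, GRCh38.p14) had 691, 515 and 525 CPM in Par replicates 1, 2 and 3, 643, 501 and 526 CPM in LM2, and 622, 537 and 533 CPM in BrM2. The lines overlapped, and replicate 1 was the highest in each. The log2 difference was -0.05 between LM2 and Par (95% interval -0.47 to 0.37, edgeR adjusted p = 0.94), -0.03 between BrM2 and Par (-0.46 to 0.39, adjusted p = 0.96) and 0.02 between BrM2 and LM2 (-0.4 to 0.44, adjusted p = 0.97). The sign of each turned when single libraries were left out. Of the 50-base stretches of NOTCH2 transcripts, 7.39% also occur in other genes, mainly NOTCH2NL copies, so some of its reads are uncertain.

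Levels of different genes were compared per kilobase of exon. The mean level of NOTCH2 was 34.4 CPM per kilobase in Par, 33.2 in LM2 and 33.7 in BrM2, and that of NOTCH1 was 2.2, 1.14 and 1.4. NOTCH3 stood at 0.109, 0.218 and 0.14 CPM per kilobase, and NOTCH4, the remaining receptor, at 0.1, 0.0909 and 0.168. NOTCH2 made up 90.7% to 97.3% of the summed per-kilobase level of the 4 receptors in each library.

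**Figure D2:**
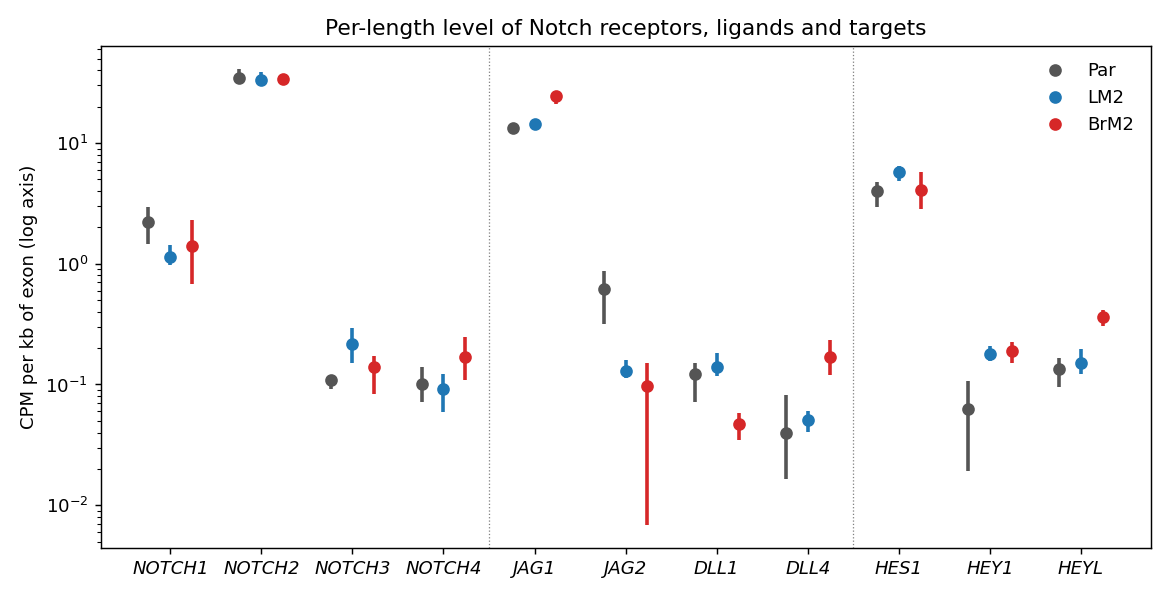
Mean level per kilobase of exon (CPM per kb, log axis) of receptors, ligands and target genes, with NOTCH4 for comparison. Points are the means of Par, LM2 and BrM2, and bars run from the lowest to the highest of 3 libraries. NOTCH2 stood at 33.2 to 34.4 and JAG1 at 13.3 to 24.3 CPM per kb.

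NOTCH1 (chr9:136494433-136546048) varied more between passages than NOTCH2. It had 27.8, 36.7 and 18.1 CPM in Par, 17.7, 12.6 and 12.3 CPM in LM2, and 28.8, 8.58 and 15.4 CPM in BrM2. The highest LM2 library was just below the lowest Par library, and BrM2 overlapped with both lines. The log2 difference between LM2 and Par was -0.95 (SE 0.44, edgeR adjusted p = 0.27), and with the replicate block it was -0.98 (adjusted p = 0.035). Between BrM2 and Par it was -0.65 (SE 0.43, adjusted p = 0.43), and -0.74 with the block (adjusted p = 0.088, or 5e-04 without the filter on low counts). The BrM2 difference within replicates was 0.05, -2.1 and -0.24 on the log2 scale, so replicate 2 held most of it. BrM2 and LM2 differed by 0.3 (adjusted p = 0.78).

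NOTCH3 (chr19:15159038-15200995), known from vascular smooth muscle, was a low receptor that passed the filter on low counts through LM2 alone. Its counts were 21, 23 and 22 in Par, 56, 48 and 37 in LM2, and 22, 18 and 32 in BrM2, with means of 1.02 ± 0.141, 2.05 ± 0.687 and 1.31 ± 0.454 CPM (SD). All LM2 libraries were above all Par libraries, and BrM2 overlapped with both. The log2 difference between LM2 and Par was 0.99 (SE 0.37, edgeR adjusted p = 0.16), and 0.96 with the replicate block (adjusted p = 0.036). Between BrM2 and Par it was 0.35 (adjusted p = 0.67), and between BrM2 and LM2 it was -0.65 (adjusted p = 0.38). The mural cell gene PDGFRB was at 28.8 CPM in Par and at 6.04 and 8.03 CPM in LM2 and BrM2, RGS5 at 1.93, 3.39 and 1.63 CPM, ACTA2 at 1.22, 2.39 and 0.948 CPM, and DCN had at most 2 counts in any library. The part of these genes in the NOTCH3 values was not tested.

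JAG1, the Jagged ligand mutated in Alagille syndrome, was the most abundant ligand and was higher in BrM2 than in both other lines. JAG1 (chr20:10637684-10673999) had 111, 130 and 128 CPM in Par, 133, 136 and 131 CPM in LM2, and 197, 251 and 230 CPM in BrM2. All BrM2 libraries were above all others. JAG1 rose 1.83-fold in BrM2 against Par (log2 difference 0.87, SE 0.16, edgeR adjusted p = 0.0076) and 1.7-fold against LM2 (0.76, SE 0.16, adjusted p = 0.021). Within replicates, BrM2 exceeded Par by 0.83, 0.94 and 0.84 on the log2 scale. Against Par the call held when any 1 of the 9 libraries was left out, with log2 differences of 0.8 to 0.96. It was lost without replicate 2 of all 3 lines (0.84, adjusted p = 0.27) and without replicate 3 of all 3 (0.94, adjusted p = 0.22), which leave 2 libraries per line. Against LM2 the call was lost without either LM2 replicate 2 or 3 (adjusted p = 0.081 and 0.082), and without either BrM2 replicate 2 or 3 (both 0.094). LM2 and Par differed by 0.11 on the log2 scale (95% interval -0.25 to 0.48, adjusted p = 0.81), although the LM2 libraries lay just above those of Par.

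JAG2 (chr14:105140995-105168776), the second Jagged ligand, was lower in BrM2 than in Par. Its counts were 81, 115 and 52 in Par, 15, 25 and 19 in LM2, and 13, 1 and 18 in BrM2, with means of 3.94 ± 1.77, 0.828 ± 0.163 and 0.62 ± 0.502 CPM (SD). Every LM2 and BrM2 library was below every Par library, and LM2 and BrM2 overlapped. JAG2 passed the filter on low counts through Par alone. The log2 difference between BrM2 and Par was -2.72 (SE 0.72, edgeR adjusted p = 0.038), and in the fit without a filter it was -2.72 (adjusted p = 6e-04). It did not reach the threshold in 5 of the 9 fits without 1 library (without Par replicate 1 or 2, LM2 replicate 2 or 3, or BrM2 replicate 3; adjusted p = 0.059 to 0.14). Without BrM2 replicate 2, with its 1 count, the difference was -2.1. Between LM2 and Par the log2 difference was -2.24 (SE 0.68, adjusted p = 0.084). Without a filter it was -2.23 (adjusted p = 0.0044), and with the replicate block it was -2.18 (adjusted p = 0.0091). BrM2 and LM2 differed by -0.48 (SE 0.75, adjusted p = 0.8). Of the 50-base stretches of JAG2, 6.53% also occur in another gene, which had 0 counts. Exons of that gene cover 469 bases (7.33%) of the JAG2 exons on the same strand. The effect of this overlap on the JAG2 counts was not tested.

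The Delta-like ligands had few reads. DLL4 (chr15:40929340-40939073), known from sprouting endothelium, and DLL1 (chr6:170282206-170291078) fell below the filter, and they were fitted with all 34056 genes that had a count. DLL4 counts were 2, 8 and 2 in Par, 5, 7 and 5 in LM2, and 15, 13 and 15 in BrM2, and every BrM2 library was above all others. DLL4 rose in BrM2 against Par by 2.04 on the log2 scale (SE 0.62, edgeR adjusted p = 0.04), a call that did not hold without Par replicate 1 or 3 (adjusted p = 0.11 and 0.23) or without BrM2 replicate 1 or 3 (0.098 and 0.064). With 1 library left out it ranged from 1.63 (without Par replicate 3) to 3.03 (without Par replicate 2). Against LM2 the difference was 1.67 (SE 0.59, adjusted p = 0.13), and with the replicate block it was 1.67 (adjusted p = 0.0087). LM2 and Par differed by 0.37 (SE 0.68, adjusted p = 0.9). The endothelial genes CDH5, VWF and TEK were at 0 to 9 counts in every library. KDR was at 4.93 ± 1.14 CPM in Par and 7.96 ± 1.11 CPM in BrM2 (SD), and PECAM1 went the other way, at 5.15 ± 2.04 and 3.22 ± 0.412 CPM. The part of these genes in the DLL4 values was not tested.

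DLL1 counts were 11, 11 and 7 in Par, 14, 11 and 12 in LM2, and 3, 3 and 4 in BrM2. The BrM2 libraries were the lowest, below all of Par and LM2. The log2 difference was -1.33 between BrM2 and Par (SE 0.63, edgeR adjusted p = 0.3) and -1.56 between BrM2 and LM2 (SE 0.62, adjusted p = 0.2), and the latter was -1.53 with the replicate block (adjusted p = 0.046). LM2 and Par differed by 0.23 (SE 0.54, adjusted p = 0.94). Exons of FAM120B, a gene named here because it overlaps, cover 370 bases (9.69%) of the DLL1 exons on the opposite strand. FAM120B was at 71.2, 55.2 and 41.8 CPM in Par, LM2 and BrM2. The strand that was counted is not stated in the sources used here, so the reads of the 2 genes in that stretch cannot be told apart.

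JAG1 made up 92.8% to 97.1% of the summed per-kilobase level of the 4 ligands in Par, 97.6% to 98.1% in LM2 and 98% to 99.4% in BrM2. Its mean level was 13.3, 14.3 and 24.3 CPM per kilobase in Par, LM2 and BrM2, against 0.616, 0.13 and 0.097 for JAG2.

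Of the target genes, HES1, a repressor that holds back differentiation, had the highest level per kilobase, at 4, 5.74 and 4.05 CPM in Par, LM2 and BrM2. HES1 (chr3:194136148-194138732) had 8.75, 9.84 and 6.11 CPM in Par, 13.2, 12.2 and 10 CPM in LM2, and 11.8, 5.9 and 7.36 CPM in BrM2. The LM2 libraries were above all Par libraries, and BrM2 overlapped with both lines. The log2 difference between LM2 and Par was 0.52 (95% interval -0.17 to 1.21, edgeR adjusted p = 0.41). It was 0.02 between BrM2 and Par (-0.68 to 0.71, adjusted p = 0.99), with a sign that turned under the block, and -0.51 between BrM2 and LM2 (-1.2 to 0.18, adjusted p = 0.41). With the block, LM2 differed from Par by 0.53 (adjusted p = 0.077) and BrM2 from LM2 by -0.53 (0.072). Without the filter on low counts, the block gave 0.54 (adjusted p = 0.038) and -0.54 (0.035).

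HEY1 and HEYL, 2 further repressors, were below the filter on low counts. HEY1, on chromosome 8, had counts of 2, 7 and 15 in Par, 23, 21 and 25 in LM2, and 14, 19 and 26 in BrM2. In CPM, every library of LM2 and BrM2 was above every Par library. The log2 difference from Par was 1.46 for LM2 (SE 0.51, edgeR adjusted p = 0.11) and 1.53 for BrM2 (SE 0.51, adjusted p = 0.07). With the replicate block these were 1.48 (adjusted p = 0.0018) and 1.54 (adjusted p = 0.001). With 1 library left out, the LM2 difference ranged from 1.08 to 2.11 and passed without Par replicate 3 (adjusted p = 0.033) or BrM2 replicate 1 (0.048). The BrM2 difference ranged from 1.15 to 2.18 and passed without Par replicate 3 (adjusted p = 0.021), LM2 replicate 1 (0.019) or 3 (0.044), or BrM2 replicate 1 (0.049). LM2 and BrM2 differed by 0.07 (95% interval -0.87 to 1.02, adjusted p = 1).

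HEYL (chr1:39623435-39639643) was higher in BrM2. Its counts were 13, 12 and 10 in Par, 16, 14 and 13 in LM2, and 17, 35 and 35 in BrM2, or 0.55 ± 0.147, 0.62 ± 0.155 and 1.49 ± 0.215 CPM (mean ± SD). The BrM2 libraries were above all others, and Par and LM2 overlapped. HEYL rose in BrM2 against Par by 1.45 on the log2 scale (SE 0.45, edgeR adjusted p = 0.046). The call was lost in 5 of the 9 fits without 1 library (without Par replicate 2 or 3, LM2 replicate 2, or BrM2 replicate 2 or 3; adjusted p = 0.054 to 0.26). Against LM2 the difference was 1.27 (SE 0.44, adjusted p = 0.12), and 1.3 with the block (adjusted p = 0.0014). LM2 and Par differed by 0.18 (SE 0.47, adjusted p = 0.94). HES1 and HEYL are the target genes whose promoters, each with 2 TGGGAA matches, are printed above.

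**Figure D3:**
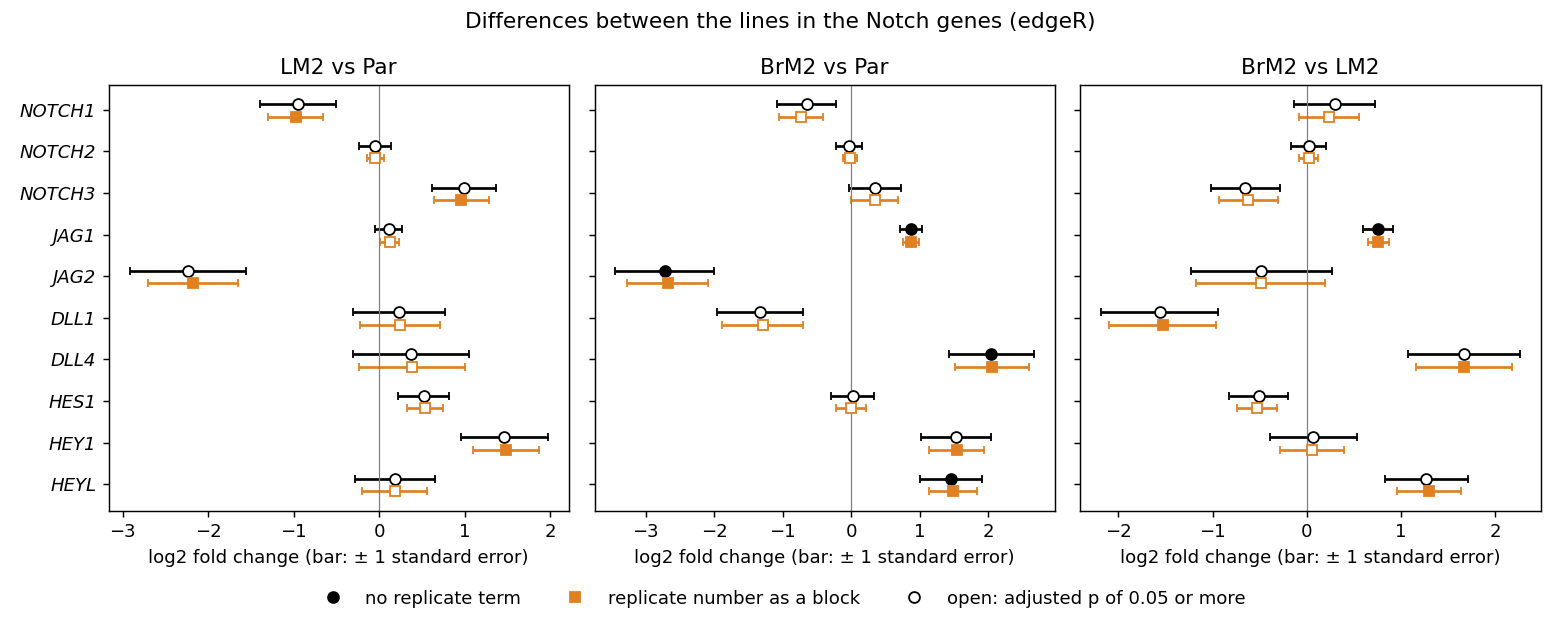
Log2 fold changes of the 10 Notch genes in the 3 comparisons, from edgeR without a replicate term (black circles) and with the replicate number as a block (orange squares). Bars are ± 1 standard error, and open symbols have an adjusted p of 0.05 or more. For JAG1 in BrM2 against Par the value was 0.87 without the block and with it.

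The calls were set beside those over all genes. The Notch genes were chosen with earlier results of these data known, so this is a description and not a test of the set. NOTCH3 and JAG2 passed the filter on low counts through 1 line alone, so all 10 members were counted in the fit over the 34056 genes with a count, without the filter. There 1 of 10 was called in LM2 against Par (JAG2) beside 4.4% of all genes, 4 in BrM2 against Par (JAG1, JAG2, DLL4 and HEYL) beside 6.36%, and 0 in BrM2 against LM2 beside 4.25%. At an unadjusted p under 0.05 in edgeR, 4 of 10 passed in LM2 against Par (NOTCH1, NOTCH3, JAG2 and HEY1), where 12.1% of all genes did, and 4 in BrM2 against LM2 (JAG1, DLL1, DLL4 and HEYL), where 12.8% did. DESeq2 without the filter called 2 of 10 in BrM2 against LM2 (JAG1 and HEYL), beside 9.18% of the genes to which it gave an adjusted p. These 2 rules were not set beside all genes in every comparison. Counts at an unadjusted p in BrM2 against Par, and by DESeq2 in both comparisons with Par, are left out here. JAG1 in BrM2 against LM2 thus had an adjusted p of 0.021 with the filter in edgeR and of 0.14 without it.

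Among the 13055 genes that passed the filter, 8.69% were called in LM2 against Par, 13.3% in BrM2 against Par and 8.1% in BrM2 against LM2. Of the 6 members in that fit, 0 were called in the first (2 at an unadjusted p under 0.05, NOTCH3 and JAG2, where 20.2% of all genes were, and JAG2 with DESeq2, where 14.5% were), JAG1 and JAG2 in the second and JAG1 in the third. These counts are descriptions, because 2 of the 6 were admitted by their level in 1 line. Without replicate 1 of all 3 lines, JAG1, JAG2 and NOTCH1 were called in BrM2 against Par, as were 40.4% of all genes, while the DLL4 difference was 1.53 (adjusted p = 0.057).

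The libraries of 2 lines did not overlap for 6 of the 10 members in LM2 against Par, for 6 in BrM2 against Par and for 4 in BrM2 against LM2. Among all genes with a count this held for 16.3%, 19.7% and 15.6%, and among the genes that passed the filter for 25.2%, 31.3% and 23.1%. With normalization factors taken over all genes in place of the genes tested, the count was 5 in LM2 against Par, since NOTCH1 then overlapped, and the same in the other comparisons. NOTCH3 and JAG2 passed that filter through 1 line alone, and the members were chosen with earlier results of these data known. The counts are therefore descriptions.

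**Figure D4:**
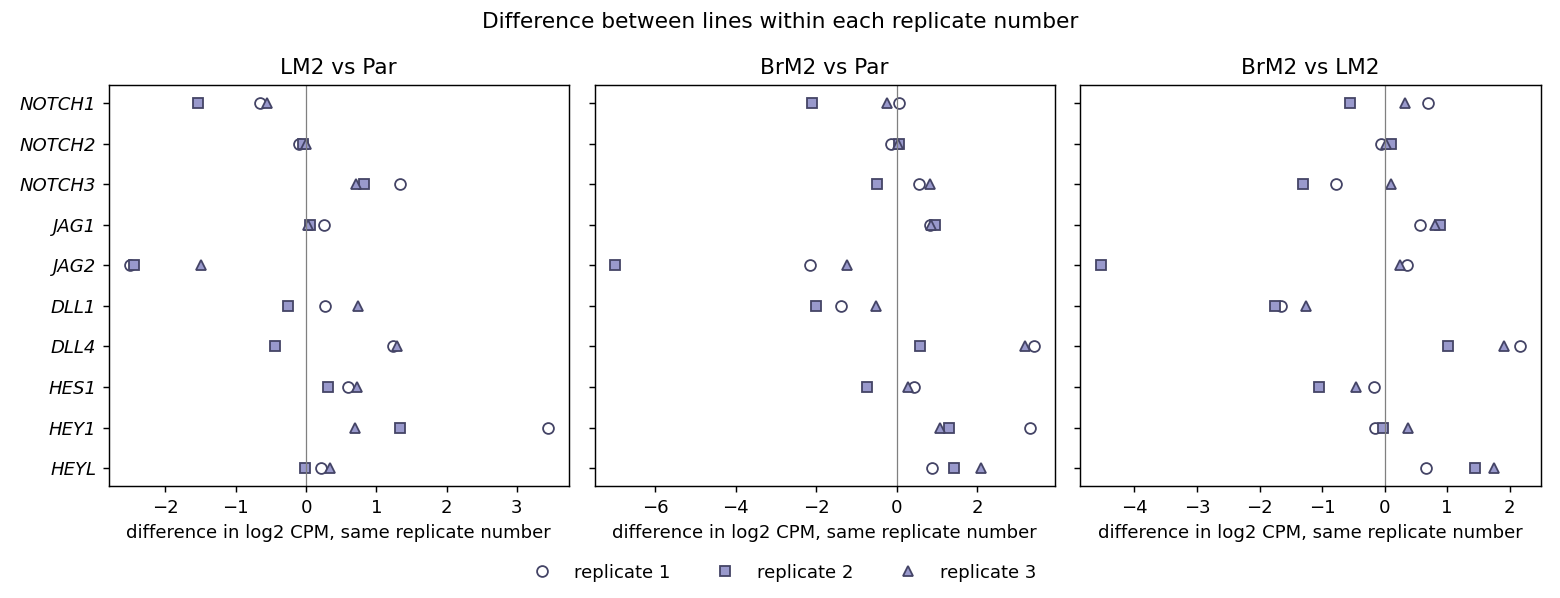
Difference in log2 CPM of each Notch gene between 2 lines within the same replicate number, for the 3 comparisons. Each point is 1 replicate number. JAG1 in BrM2 against Par lay between 0.83 and 0.94, and JAG2 replicate 2, with 1 count in BrM2, reached -6.98.

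The pathway around these genes was described from 60 further genes listed by role, of which 58 were in the table and 46 passed the filter. Called were 1 of 46 in LM2 against Par (1 higher, 0 lower), 4 in BrM2 against Par (2 higher, 2 lower) and 2 in BrM2 against LM2 (0 higher, 2 lower), beside backgrounds of 8.69%, 13.3% and 8.1%. Their median log2 difference was -0.01, -0.22 and -0.07, and that of all genes tested was 0.01, -0.02 and -0.03. With the replicate block 13, 19 and 13 of the 46 were called, beside 34.5%, 42.7% and 37.5% of all genes.

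DNER, a noncanonical Notch ligand, was at 3 ± 0.409 CPM in Par, 13 ± 0.557 CPM in LM2 and 8.59 ± 1.43 CPM in BrM2 (SD), and every library of the sub-populations was above all of Par. It rose by 2.12 on the log2 scale in LM2 (SE 0.22, edgeR adjusted p = 0.00056) and by 1.51 in BrM2 (SE 0.22, adjusted p = 0.002). MAML3, a Mastermind coactivator, rose by 1.13 in BrM2 against Par (SE 0.22, adjusted p = 0.0092), from 5.97 to 13.1 CPM. TLE3, a corepressor of the Groucho family, fell by 1 on the log2 scale in BrM2 against Par (SE 0.24, adjusted p = 0.024), a call lost without Par replicate 1 or 2 or BrM2 replicate 2 or 3 (adjusted p = 0.076 to 0.11).

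MFNG, a Fringe enzyme that adds sugars to Notch receptors, was lowest in BrM2. It had 86, 62 and 87 counts in Par, 42, 43 and 61 in LM2, and 6, 12 and 14 in BrM2. The BrM2 libraries did not overlap with those of any other line. MFNG fell by 2.7 on the log2 scale against Par (SE 0.3, edgeR adjusted p = 0.00056) and by 1.88 against LM2 (SE 0.3, adjusted p = 0.0053). NEURL1B, a ubiquitin ligase for Notch ligands, fell by 1.26 on the log2 scale in BrM2 against LM2 (SE 0.31, adjusted p = 0.039), a call lost in 6 of the 9 fits without 1 library (adjusted p = 0.072 to 0.15). With 2 libraries per line, after replicate 2 or replicate 3 was left out of all lines, DNER was at adjusted p = 0.1 and 0.082 in LM2 against Par and 0.15 and 0.11 in BrM2 against Par, MAML3 at 0.27 and 0.18, and MFNG in BrM2 against LM2 at 0.19 and 0.19. MFNG against Par was at 0.056 without replicate 2.

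**Figure D5:**
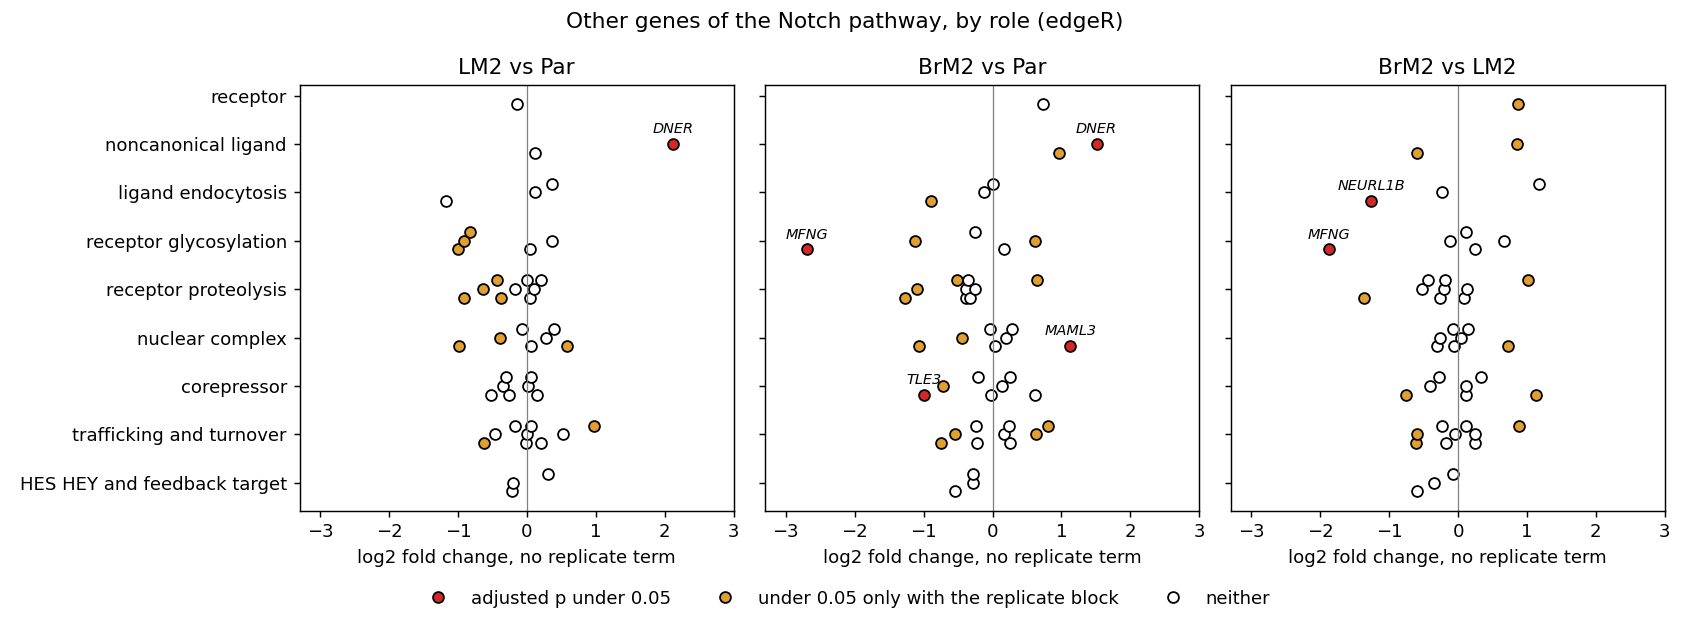
Log2 fold changes without a replicate term of the 46 other pathway genes that passed the filter, in rows by role, for the 3 comparisons. Red points had an edgeR adjusted p under 0.05, yellow points only with the replicate block, and white points neither. DNER was at 2.12 in LM2 and 1.51 in BrM2, and MFNG at -2.7 in BrM2.

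RBPJ, the DNA-binding partner of all Notch receptors, was at 116, 205 and 258 CPM in Par, 71.3, 169 and 202 CPM in LM2, and 71.4, 193 and 160 CPM in BrM2. Replicate 1 was lowest in each line and the lines overlapped. The log2 difference from Par was -0.39 in LM2 (edgeR adjusted p = 0.77) and -0.45 in BrM2 (adjusted p = 0.67), and with the block it was -0.45 (adjusted p = 0.032) and -0.49 (adjusted p = 0.018). NOTCH4 gave log2 differences of -0.14, 0.73 and 0.87 in LM2 against Par, BrM2 against Par and BrM2 against LM2 (edgeR adjusted p = 0.92, 0.36 and 0.3), and only the last passed with the block (0.86, adjusted p = 0.044). NOTCH4 passed the filter on low counts through BrM2 replicate 1 alone (2.43 CPM, against at most 1.36 in Par and 1.19 in LM2). Its call with the block is therefore a description.

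Of the other HES and HEY genes, HES4 and HES7 had few counts and were fitted without the filter. HES4 counts were 24, 26 and 18 in Par, 5, 1 and 2 in LM2, and 19, 9 and 5 in BrM2, and the LM2 libraries were below all of Par. HES4 fell by 3.14 on the log2 scale in LM2 against Par (SE 0.67, edgeR adjusted p = 0.0022, and 0.054 without replicate 2 of all 3 lines), and between BrM2 and LM2, whose CPM overlapped, the difference was 2.39 (SE 0.71, adjusted p = 0.044). The latter call was lost without BrM2 replicate 1 (1.43, adjusted p = 0.4) and without LM2 replicate 2 or 3 (adjusted p = 0.13 and 0.073). HES7 counts were 1, 4 and 3 in Par, 1, 2 and 0 in LM2, and 13, 6 and 6 in BrM2, so that all LM2 libraries were at or under 3 counts. Taken against 3 counts per LM2 library, HES7 was at least 3.91-fold higher in BrM2 than in LM2 (edgeR adjusted p = 0.025), a bound that was 2.14-fold without BrM2 replicate 1. The call was lost without BrM2 replicate 1 (adjusted p = 0.21) and without LM2 replicate 3 (adjusted p = 0.11). HES2 gave log2 differences of -0.22, -0.29 and -0.07 and HES6 of -0.2, -0.55 and -0.35 in the same order of comparisons, and none passed. HES5 and HEY2 had 0 to 4 counts in every library.

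The genes whose log2 CPM followed JAG1 most closely across the 9 libraries were SP140, PTGER4 and ENSG00000286034, with Pearson's r of 0.98, 0.98 and 0.979. SP140 was at 3.71, 3.47 and 20.8 CPM in Par, LM2 and BrM2, and PTGER4 at 5.9, 7.77 and 15.9. JAG2 was followed by NACC2 (0.981), SEC61B (0.962) and AFAP1 (0.955), and DLL4 by KRI1 (0.978), SNORD3B-2 (0.955) and SRSF9 (0.954). The points share 3 lines, the shifts of each replicate number and the depth of each library. The genes were picked as the highest among 13055 genes.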

How the data were processed

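RNA-seq was measured in Par, LM2 and BrM2, with 3 libraries each, grouped by their labels. The authors prepared stranded mRNA libraries, obtained gene counts from paired-end reads with STAR 2.7.0 on hg38, and deposited them raw. The deposited DESeq2 table holds only the authors' fold changes and adjusted p-values and was not used. The Notch genes and the gene lists were chosen with earlier results of these data known.

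Of 58887 rows, 3 repeated identifiers with identical rows were kept once. A filter written after HTSFilter kept 13055 genes with a largest normalized count above 47.15, which held 99.64% to 99.78% of the counts of each library. The lines were compared in edgeR 4.0.16 (TMM, two-sided quasi-likelihood test, all 9 libraries, no replicate term), with Benjamini-Hochberg adjustment and a threshold of 0.05. Genes below the filter were fitted with all 34056 genes that had a count. DLL3 and NUMB were not analysed here. Named besides the 10 members were, per comparison, the 3 largest rises and falls past the threshold among the other pathway genes, NOTCH4, RBPJ, the HES and HEY family, and, for the 3 members of smallest adjusted p, the 3 genes of highest correlation of log2 CPM (prior count 2). Exon lengths and overlaps came from GENCODE v44 lifted to GRCh37, and positions from RefSeq GRCh38.p14. The tests were also run on simulated counts that held no shift shared by a replicate number. That run cannot show how they behave under such shifts.

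The study's methods do not say that a replicate number links the lines. Deviations of log2 CPM from the line mean correlated at 0.23 to 0.9 in all 9 pairs of libraries with the same number. The number was therefore also fitted as a block, as an alternative. The main p-values leave it out and so ignore this pairing. The block lowered the common dispersion from 0.11 to 0.021. Alternatives were RLE size factors, DESeq2 1.42.0, no filter, filterByExpr (15864 genes), the replicate block, and leaving out each library or each replicate number. Software was R 4.3.3 with limma 3.58.1, and Python 3.11.15 with pandas 2.3.3, matplotlib 3.10.9 and numpy 2.4.6.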

Additional observations from a re-analysis of the deposited data

Results flagged for a closer look

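In 5 of the named genes the 2 metastatic sub-populations differed from each other by a direct test of BrM2 against LM2 in edgeR. JAG1, NEURL1B and MFNG were called with the filter on low counts, and HES4 and HES7 in the fit without it. The log2 difference of BrM2 from LM2 was 0.76 for JAG1 (adjusted p = 0.021), -1.26 for NEURL1B (adjusted p = 0.039), -1.88 for MFNG (adjusted p = 0.0053), 2.39 for HES4 (adjusted p = 0.044) and 3.31 for HES7 (adjusted p = 0.025). The value of HES7 is a fitted one against LM2 libraries with 0 to 2 counts and depends on the prior count. With the filter, the fit of JAG1, NEURL1B and MFNG, 1 of 6 Notch genes and 2 of 46 other pathway genes were called, beside 8.1% of all genes. Without it, the fit of HES4 and HES7, 4.25% of all genes were called, and 0 of the 10 Notch genes (JAG1 adjusted p = 0.14). That fit called 6 of the 58 other pathway genes in the table, not all of which are named here. Of the 9 fits without 1 library, the call held in 5 for JAG1, 3 for NEURL1B, 9 for MFNG, 6 for HES4 and 7 for HES7.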

How the results depend on the processing

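Alternatives moved the number of calls. Counts of Notch genes are over the 6 members that passed the filter, of which NOTCH3 and JAG2 passed through 1 line alone. In LM2 against Par, 1134 genes, 0 Notch genes and 1 other pathway gene were called. Without a filter, 1 Notch gene and 4 other pathway genes were called, against 4 other pathway genes with filterByExpr, and 1893 genes and 1 Notch gene with DESeq2. In BrM2 against Par, 1733 genes (13.3%) were called with the filter. Without a filter, 8 of the 58 other pathway genes were called there, beside 6.36% of all genes. In BrM2 against LM2, 1057 genes were called. Without a filter 0 Notch genes (JAG1 adjusted p = 0.14) and 6 of the 58 other pathway genes were called, beside 4.25% of all genes. DESeq2 called 1824 of the 13055 genes that passed the filter and 6 of the 46 other pathway genes. JAG2 in LM2 against Par passed without a filter (adjusted p = 0.0044) and with DESeq2 (0.014). DESeq2 also called HEY1 in BrM2 against Par (0.039), DESeq2 and filterByExpr called HEYL in BrM2 against LM2 (both 0.042), and HES4 in BrM2 against LM2 lost its call with DESeq2 (0.052), RLE size factors (0.051) and filterByExpr (0.13). The cause was not tested.

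With the replicate block 4510, 5577 and 4896 genes were called in LM2 against Par, BrM2 against Par and BrM2 against LM2, with 3 Notch genes in the first (and HEY1 below the filter) and 13, 19 and 13 other pathway genes. HES1 in BrM2 against Par turned to -0.01. Beside the calls given with each gene, the block added those of NEURL1B in BrM2 against Par, DNER, MAML3 and TLE3 in BrM2 against LM2, and MFNG in LM2 against Par. In the main fit of each named gene it changed no other call. Without the filter, the block also called NOTCH1 in BrM2 against Par and HES1 in LM2 against Par and in BrM2 against LM2.

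When 1 library was left out, the calls ranged from 591 to 1266 genes, 0 to 1 Notch genes and 1 to 2 other pathway genes in LM2 against Par, from 941 to 2119, 1 to 2 and 3 to 7 in BrM2 against Par, and from 545 to 1211, 0 to 1 and 1 to 4 in BrM2 against LM2. When a replicate number was left out of all lines, they ranged from 70 to 4327, 0 to 1 and 0 to 13, from 159 to 5274, 0 to 3 and 0 to 19, and from 53 to 4257, 0 to 1 and 0 to 11, with the most genes without replicate 1 (where HEYL in BrM2 against LM2 also passed, adjusted p = 0.00077, as it did without LM2 replicate 1, 0.03) and the fewest without replicate 2 (136, 274 and 113 without replicate 3). None of the log2 values whose sign turned had passed the test. With 1 library left out, these ranged in LM2 against Par from -0.17 to 0.1 for NOTCH2, -0.4 to 0.16 for NOTCH4, -0.67 to 0.05 for HES6, -0.06 to 0.43 for DLL1, -0.04 to 1.36 for DLL4 and -0.05 to 0.37 for HEYL. In BrM2 against Par they ranged from -0.11 to 0.12 for NOTCH2 and -0.31 to 0.22 for HES1. In BrM2 against LM2 they ranged from -0.25 to 0.62 for NOTCH1, -0.06 to 0.13 for NOTCH2, -0.89 to 0.11 for JAG2, -0.39 to 0.26 for RBPJ, -0.26 to 0.08 for HES2, -0.96 to 0.12 for HES6 and -0.09 to 0.21 for HEY1. With a number left out, they ranged in BrM2 against Par from -0.06 to 0.06 for NOTCH2 and -0.25 to 0.39 for HES1, and in BrM2 against LM2 from -0.04 to 0.56 for NOTCH1, -0.02 to 0.07 for NOTCH2, -0.96 to 0.3 for JAG2, -0.26 to 0.14 for RBPJ, -0.19 to 0.09 for HES2 and -0.09 to 0.22 for HEY1.

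Depth limits NOTCH4, DLL1, DLL4, HEY1, HEYL, HES4 and HES7, with at most 35 counts per library. It also limits JAG2 in LM2 and BrM2 (1 to 25 counts), NOTCH3 in Par and BrM2 (18 to 32) and MFNG in BrM2 (6 to 14).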
